A study of Mus musculus with 8 samples.

Results

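The Toll-like receptors of the mouse were examined in primary microglia with and without lipopolysaccharide (LPS). The group comprised 10 genes, Tlr1 to Tlr9 and Tlr13, found by Ensembl identifier among the 52636 gene identifiers of the deposited count table. Of these, 9 had enough reads for the test across all genes and Tlr5 did not. Wild-type (WT) C57BL/6 microglia, which the study's methods describe as shaken off mixed glial cultures of neonatal brain (with C57BL/6N as the source of wild-type pups), were kept in medium with 10% serum and 10 ng/ml CSF-1, the growth factor that keeps macrophages and microglia alive. Cultures then received vehicle or 5 µg/ml LPS for 24 h, and RNA of 4 libraries per group was sequenced. All groups therefore share the neonatal origin, the serum and the CSF-1, and the sources used here do not say how many animals fed each culture.

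Toll-like receptors are membrane proteins of innate immune cells that recognise conserved parts of microbes. On the cell surface, TLR2 pairs with TLR1 or TLR6 to bind bacterial lipoproteins, TLR4 binds LPS together with MD-2 and CD14, and TLR5 binds flagellin. In endosomes, TLR3 binds double-stranded RNA, TLR7 and TLR8 belong to the receptors of single-stranded RNA, TLR9 binds DNA with unmethylated CpG and TLR13 binds a sequence of bacterial ribosomal RNA. All signal through the adaptor MyD88 except TLR3, which uses TRIF, and TLR4 uses both. Since LPS is the ligand of TLR4, the treatment engages a receptor of the family directly, and the comparison asks how the transcripts of the whole family stood after that stimulus.

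Library totals ranged from 20071921 to 30604447 counts. The normalization factors did not overlap between groups, so values are given as CPM (counts scaled to a common library size) after TMM scaling, and other scalings are named where they matter. Of 13847 tested genes, 30.3% were called higher and 33.8% were called lower after LPS (edgeR quasi-likelihood test, Benjamini-Hochberg adjusted p under 0.05). Scaled to library totals instead, 1988 genes were higher and 8457 lower, against 4191 and 4686, and the median log2 fold change of all tested genes moved by -0.68. LPS replicate 3 had the highest level of Tlr3, Tlr4, Tlr6, Tlr7, Tlr8, Tlr9 and Tlr13 among the LPS libraries, and the log2 fold changes of these genes without it are given with each. It correlated with the other LPS libraries at r of 0.969 to 0.980 and with vehicle libraries at no more than 0.848 (log2 CPM across genes, which are not independent replicates).

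The summed level of 11 microglial markers, among them Csf1r, Cx3cr1 and Trem2, lay between 9731 and 11579 CPM in vehicle. After LPS it lay between 1993 and 2586 CPM. All 11 were tested, with 8 lower and 1 higher, beside 33.8% and 30.3% of all tested genes. Against that direction, Spi1 went from 272 ± 28.9 to 424 ± 111 CPM, and Aif1 stood at 126 ± 41.3 and 126 ± 24.0 CPM. In vehicle libraries Tmem119 and P2ry12, markers of microglia in tissue, stood at 9.40 ± 4.89 and 33.8 ± 11.6 CPM (SD, n = 4), against 3181 ± 378 CPM for Csf1r. A list of 5 border macrophage markers summed to 575 to 1052 CPM and to 37.6 to 73.1 CPM after LPS, with all 3 tested lower. Mrc1 carried the sum, at 650 ± 197 and 38.9 ± 6.63 CPM. Cd163 stood at 0.489 ± 0.211 CPM in vehicle and Lyve1 had at most 3 counts everywhere. Of 5 neutrophil markers 4 (Elane, Ly6g, Mpo and S100a9) had at most 3 counts in every library, and the list rose from 0.0692 to 0.770 CPM to 572 to 1173 CPM through S100a8. Endothelial markers summed to 31.0 to 73.5 CPM and 163 to 254 CPM, with all 3 tested (Pecam1, Cdh5 and Flt1) higher. Pecam1 went from 2.60 ± 1.95 to 52.3 ± 15.6 CPM and Flt1 from 48.6 ± 23.6 to 165 ± 52.9 CPM. Cldn5 and Tek had at most 3 counts everywhere. Of 4 plasmacytoid dendritic cell markers, summed at 236 to 497 CPM and 1045 to 1385 CPM, Siglech and Klk1 had at most 3 counts everywhere and Bst2 carried the sum. The 5 lymphocyte markers together stayed at or below 1.09 CPM in every library. Astrocyte markers summed to 20.6 to 47.7 CPM and 41.4 to 124 CPM, with 1 gene higher and 3 lower, and Gja1 (0.873 ± 0.221 to 48.6 ± 33.2 CPM) carried the LPS value. Oligodendrocyte precursor markers summed to 23.9 to 104 CPM and 54.0 to 124.9 CPM, again with 1 higher and 3 lower, and Vcan went from 16.6 ± 7.58 to 61.2 ± 30.3 CPM. Oligodendrocyte markers summed to 150 to 205 CPM and 188 to 238 CPM, with 1 higher and 1 lower, as Cnp went from 88.6 ± 24.8 to 195 ± 23.1 CPM and Mbp from 84.0 ± 15.7 to 15.3 ± 3.54 CPM. Neuron markers summed to 7.33 to 21.4 CPM and 2.80 to 10.5 CPM, with 4 of 5 tested lower. Fibroblast markers summed to 0.497 to 3.52 CPM and 5.30 to 21.3 CPM, with 1 of 2 tested higher. The shares of all tested genes, 30.3% higher and 33.8% lower, stand beside the count of each list. The part of these markers in the receptor results was not tested. In bulk RNA, fewer cells of a type and less RNA per cell cannot be told apart.

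Tlr1 (ENSMUSG00000044827, chr5:64924679-64933563, minus strand) and Tlr6 (ENSMUSG00000051498, chr5:64952031-64960097, minus strand) lie 18.5 kb apart in GRCm38 and are close copies. Their coding sequences shared an identical stretch of 229 bases, from coding base 1468 to 1696 of 2385 in Tlr1 and from 1507 to 1735 of 2418 in Tlr6. It is shown because a read of 50 bases that falls wholly inside it cannot be assigned to either gene:
Tlr1 and Tlr6: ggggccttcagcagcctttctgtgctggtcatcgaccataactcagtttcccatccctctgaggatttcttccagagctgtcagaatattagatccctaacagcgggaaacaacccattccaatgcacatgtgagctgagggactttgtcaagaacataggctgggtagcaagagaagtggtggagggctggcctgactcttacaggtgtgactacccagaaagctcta
Over the whole exons, 13.6% of the 50-base windows of Tlr1 and 12.3% of those of Tlr6 occurred in the other gene. Since the authors counted uniquely aligned reads, such reads add to neither gene and the level of both is understated. Over all other genes, 15.4% of the windows of Tlr1 were shared, with 307 genes that include Tlr6. Tlr3 (ENSMUSG00000031639, chr8:45395665-45411080, minus strand) has 7.32% of its exonic bases overlapped on the opposite strand by Gm45542. The sources used here do not state whether counting used strand, so reads of that part cannot be told apart from those of Gm45542. Of the other receptors, Tlr4 shared 0.216% of its windows with 2 other genes and Tlr2, Tlr5, Tlr7, Tlr8, Tlr9 and Tlr13 shared none.

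The transcripts of 3 receptors rose after LPS (Tlr3, Tlr1 and Tlr6), 5 fell (Tlr2, Tlr13, Tlr9, Tlr8 and Tlr4), and Tlr7 was not called. Of 9 tested receptors, 3 were thus higher, close to the 30.3% of all tested genes, and 5 were lower, against 33.8% of all tested genes. The groups did not overlap for 8 of the 9, where 60.2% of all tested genes had groups that did not overlap. Rises and falls occurred among the surface and among the endosomal receptors, so neither class moved as a whole. The order from the largest fall to the largest rise ran from Tlr2, at -3.05 on the log2 scale, to Tlr3, at 2.43.

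**Figure D1:**
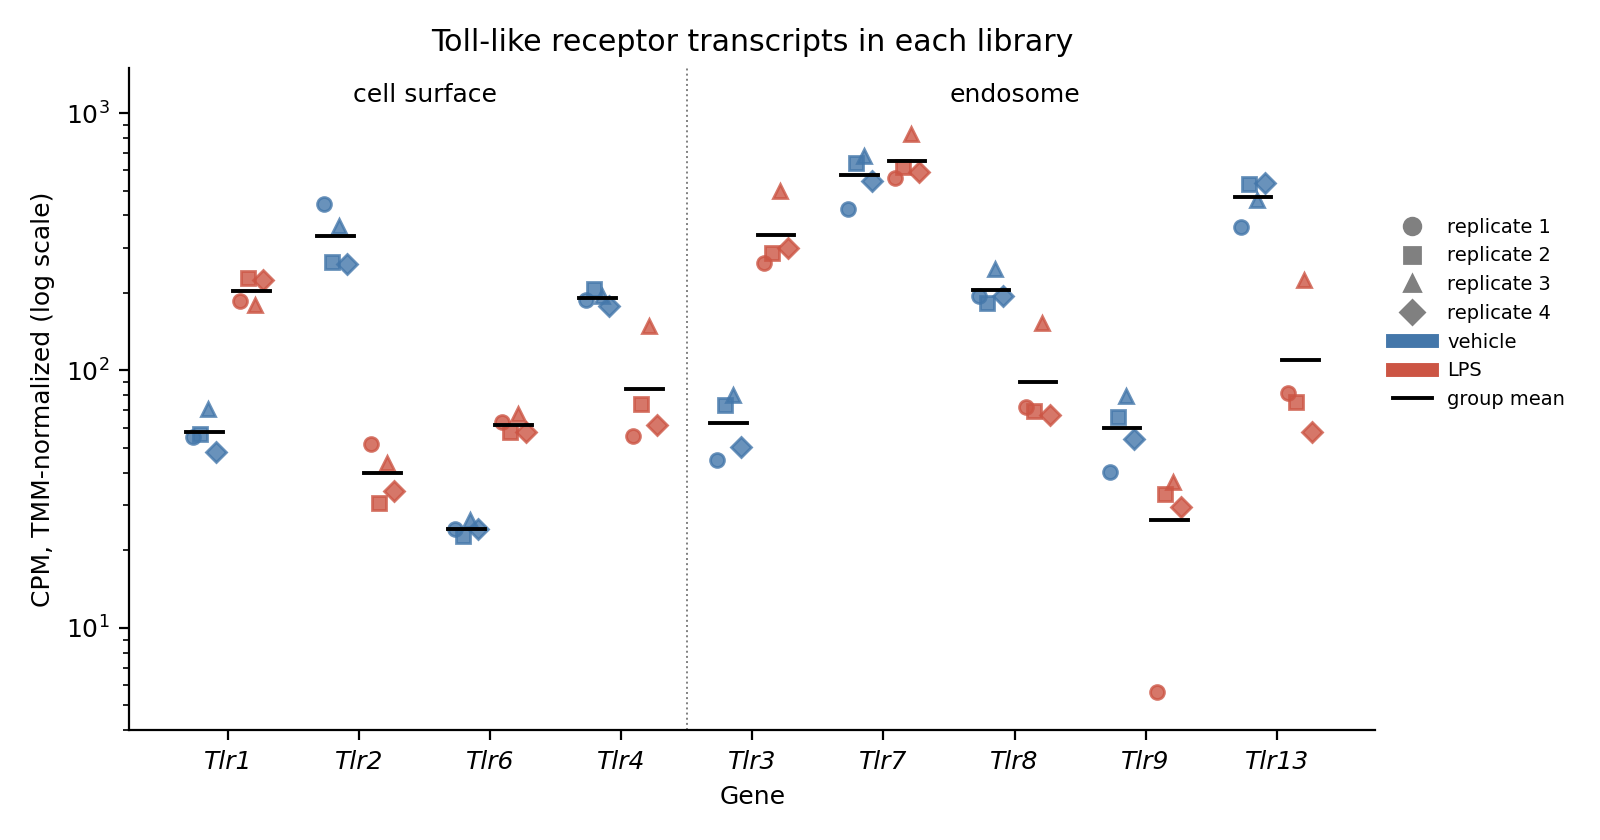
CPM after TMM scaling (log axis) of the 9 tested Toll-like receptor genes in each of the 4 vehicle (blue) and 4 LPS (red) libraries, with black bars at the group means and symbols for the replicate number. Tlr7 is the gene whose groups overlap, and LPS replicate 3 (triangle) stands at 499 CPM for Tlr3, 153 CPM for Tlr8 and 225 CPM for Tlr13, above the other LPS libraries. Tlr5 is left out because 1 of its libraries has no count.

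Among the surface receptors, Tlr2 (ENSMUSG00000027995, chr3:83836272-83841767, minus strand), the shared partner of the lipoprotein receptors, fell the most of the family. Its level was 442, 264, 363 and 259 CPM in vehicle replicates 1 to 4 and 51.9, 30.7, 43.8 and 34.1 CPM in the LPS libraries. Every LPS library lay far below the lowest vehicle library. The mean went from 332 ± 87.9 to 40.1 ± 9.62 CPM (SD, n = 4 per group), 8.27-fold lower, with a log2 fold change of -3.05 ± 0.24 (SE) and an edgeR adjusted p of 4.39e-06.

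The partners of TLR2 moved the other way. Tlr1 stood at 55.4, 56.8, 71.0 and 48.1 CPM in vehicle and at 186, 228, 179 and 224 CPM after LPS. All LPS libraries lay above all vehicle libraries, and the mean was 3.53-fold higher, from 57.9 ± 9.59 to 204 ± 25.7 CPM (log2 fold change 1.82 ± 0.15, edgeR adjusted p = 5.50e-06). Tlr6 had 24.2, 22.7, 26.3 and 24.2 CPM in vehicle and 63.3, 57.9, 67.5 and 57.5 CPM after LPS. It had the smallest spread within groups of the tested receptors and was 2.53-fold higher (24.3 ± 1.47 to 61.5 ± 4.76 CPM, log2 fold change 1.34 ± 0.094, edgeR adjusted p = 2.36e-06). Scaled to library totals the log2 fold change of Tlr6 was 0.66, with the call kept, and it was 1.30 without LPS replicate 3.

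Tlr4 (ENSMUSG00000039005, chr4:66827584-66930284, plus strand), the LPS receptor itself, fell. Vehicle libraries held 188, 206, 194 and 178 CPM, and LPS libraries held 55.5, 74.4, 149 and 61.7 CPM. LPS replicate 3 lay nearest to the vehicle libraries, yet still below them. The mean was 2.25-fold lower, from 192 ± 11.9 to 85.0 ± 43.1 CPM, with a log2 fold change of -1.17 ± 0.28 (edgeR adjusted p = 0.00487), and -1.58 without LPS replicate 3 (edgeR adjusted p = 1.08e-05).

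Tlr5 (ENSMUSG00000079164, chr1:182954788-182976044, plus strand), the flagellin receptor, was near the limit of detection. It had 36, 13, 20 and 8 counts in the vehicle libraries and 2, 0, 1 and 5 counts in the LPS libraries. The groups did not overlap, at 0.657 ± 0.427 CPM against 0.109 ± 0.118 CPM (exact permutation test, two-sided, p = 0.0286, which is the lowest value possible with 4 libraries against 4). It was left out of the main test by the filter on low counts, so no call was made, and without that filter the edgeR log2 fold change was -2.59 (adjusted p = 0.0122).

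Among the endosomal receptors, Tlr3, the receptor of double-stranded RNA, had the largest rise of the family. It stood at 45.1, 73.6, 80.5 and 50.3 CPM in vehicle and at 261, 285, 499 and 298 CPM after LPS. The lowest LPS library was far above the highest vehicle library. The mean was 5.39-fold higher, from 62.4 ± 17.3 to 336 ± 110 CPM (log2 fold change 2.43 ± 0.26, edgeR adjusted p = 3.62e-05), and the log2 fold change was 2.18 without LPS replicate 3.

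Tlr13 (ENSMUSG00000033777, chrX:106143204-106160493, plus strand), the receptor of bacterial ribosomal RNA, fell the most of the endosomal group. Its level was 361, 528, 459 and 534 CPM in vehicle and 81.4, 75.4, 225 and 57.8 CPM after LPS. LPS replicate 3 was the exception among the LPS libraries but remained below every vehicle library. The mean was 4.28-fold lower, from 470 ± 80.6 to 110 ± 77.2 CPM (log2 fold change -2.10 ± 0.40, edgeR adjusted p = 0.00126). Without LPS replicate 3 the log2 fold change was -2.71.

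The neighbours Tlr8 (ENSMUSG00000040522, chrX:167242696-167264329) and Tlr7 (ENSMUSG00000044583, chrX:167304929-167330558), on the minus strand and 40.6 kb apart, differed in their response. Tlr8 had 194, 182, 249 and 195 CPM in vehicle and 72.2, 69.4, 153 and 67.3 CPM after LPS, 2.27-fold lower in the mean (205 ± 29.8 to 90.4 ± 41.6 CPM, log2 fold change -1.18 ± 0.27, edgeR adjusted p = 0.00337). Without LPS replicate 3 the log2 fold change of Tlr8 was -1.55. Tlr7 had 424, 642, 678 and 543 CPM in vehicle and 561, 617, 828 and 589 CPM after LPS, so the groups overlapped. Its means of 572 ± 114 and 648 ± 122 CPM differed by less than the spread between replicates (log2 fold change 0.18 ± 0.18, edgeR adjusted p = 0.408), and the log2 fold change was 0.048 without LPS replicate 3. Scaled to library totals Tlr7 was called lower, at -0.51 (edgeR adjusted p = 0.0135), while relative to the median of all tested genes it stood at 0.29 with TMM and at 0.28 with library totals.

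Tlr9 (ENSMUSG00000045322, chr9:106222598-106226883, plus strand), the receptor of CpG DNA, fell with the least certainty. Vehicle libraries held 40.4, 65.7, 79.9 and 54.0 CPM and LPS libraries held 5.63, 33.2, 36.8 and 29.5 CPM. LPS replicate 1 was far below the other LPS libraries, and the highest LPS library lay close to the lowest vehicle library. The mean was 2.28-fold lower, from 60.0 ± 16.8 to 26.3 ± 14.1 CPM (log2 fold change -1.19 ± 0.46, edgeR adjusted p = 0.0439), with a log2 fold change of -1.39 without LPS replicate 3. Without LPS replicate 1 the log2 fold change was -0.85, the smallest fall of all settings, with the call kept (edgeR adjusted p = 0.00875). The call was lost without vehicle replicate 2, 3 or 4 (adjusted p = 0.0847, 0.109 and 0.0656), and without LPS replicate 2 or 4 (0.0614 and 0.0755), and the adjusted p was 0.00448 with the replicate number as a block.

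**Figure D2:**
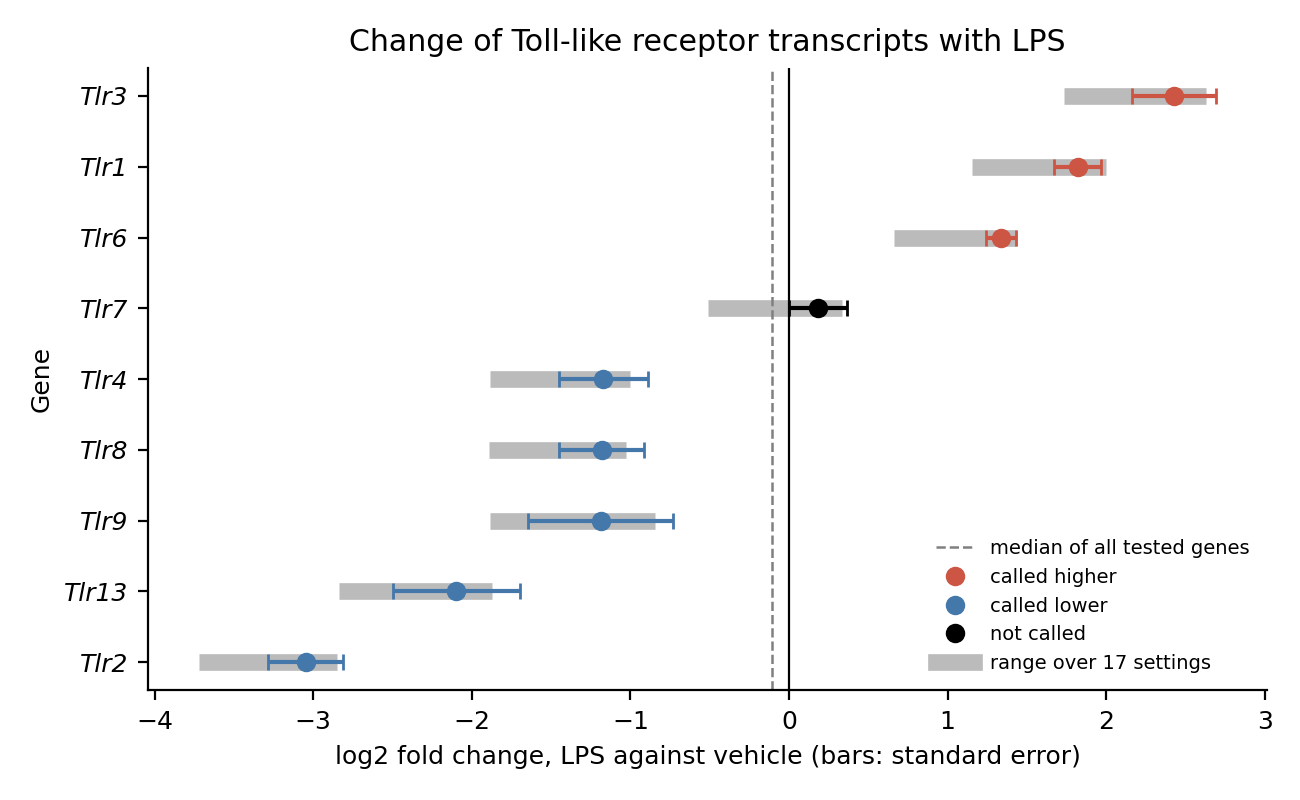
Log2 fold change, LPS against vehicle, of the 9 tested Toll-like receptor genes with standard errors, coloured by call, over grey bars that span the values of 17 settings of the analysis. The dashed line marks the median of all tested genes, at -0.11, and the bar of Tlr7, from -0.51 to 0.33, is the only one that crosses 0.

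Tlr11 and Tlr12, mouse receptors of a protozoan profilin and outside the group of 10, were barely detected. Tlr11 had at most 12 counts in any library, with overlapping groups. Tlr12 had 3, 14, 27 and 6 counts in vehicle and none in the LPS libraries, which makes it at least 2.57-fold lower against a floor of 3 counts per LPS library, a limit that covers counting error only. Without vehicle replicate 3 that limit was 1.66-fold, and vehicle replicate 1, at 0.105 CPM, lay below the floor of 0.161 CPM.

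Levels of different genes were compared per kilobase of exon, as CPM per kb. In vehicle libraries Tlr7 was the highest at 140 ± 27.9 CPM per kb, followed by Tlr2 at 110 ± 29.2 and Tlr13 at 109 ± 18.7 CPM per kb, and the ranges of these neighbours overlapped. Tlr8 at 57.2 ± 8.30 and Tlr4 at 34.5 ± 2.15 CPM per kb came next, each with a range apart from its neighbours. Tlr1 at 17.3 ± 2.87, Tlr9 at 17.3 ± 4.83 and Tlr3 at 11.97 ± 3.32 CPM per kb had overlapping ranges, above Tlr6 at 6.53 ± 0.39 and Tlr5 at 0.137 ± 0.0891 CPM per kb.

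After LPS Tlr7 remained at the top with 159 ± 29.8 CPM per kb, apart from the rest. Tlr3 at 64.5 ± 21.2 and Tlr1 at 61.1 ± 7.68 CPM per kb, low in vehicle, now followed with overlapping ranges. Tlr13 at 25.5 ± 17.9 and Tlr8 at 25.2 ± 11.6 CPM per kb overlapped. Tlr6 at 16.5 ± 1.28, Tlr4 at 15.3 ± 7.75, Tlr2 at 13.3 ± 3.19 and Tlr9 at 7.56 ± 4.05 CPM per kb formed a run in which each range overlapped the next. That run was not apart from the pair above it. The range of Tlr13, 13.4 to 52.2 CPM per kb, overlapped those of Tlr3, Tlr6, Tlr4 and Tlr2, and that of Tlr8 overlapped that of Tlr4. Tlr5 was last at 0.0228 ± 0.0247 CPM per kb.

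Summed over the 10 receptors, the level was 504 ± 44.6 CPM per kb in vehicle and 388 ± 87.1 CPM per kb after LPS, and the groups overlapped because LPS replicate 3 stood at 517 CPM per kb. The share of Tlr2 in that sum went from 22.0 ± 6.58% to 3.54 ± 1.16%, and that of Tlr13 from 21.7 ± 3.92% to 6.15 ± 2.74%. The share of Tlr8 went from 11.3 ± 1.00% to 6.29 ± 1.35% and that of Tlr4 from 6.86 ± 0.51% to 3.79 ± 0.97%. In the other direction, Tlr1 went from 3.41 ± 0.32% to 16.4 ± 4.17%, Tlr3 from 2.35 ± 0.47% to 16.4 ± 1.56%, Tlr6 from 1.30 ± 0.095% to 4.36 ± 0.69% and Tlr7 from 27.6 ± 3.72% to 41.2 ± 1.31%. The groups did not overlap for any of these 8 shares, while those of Tlr9, 3.38 ± 0.68% and 1.91 ± 0.98%, overlapped. The shares of a library always add up to the whole, so these 8 are not independent of each other. The share of Tlr7 was larger, while its level overlapped between groups and the mean of the summed level was lower. LPS replicate 3 had a sum of 517 CPM per kb, a Tlr7 share of 39.2% and 828 CPM of Tlr7. The endosomal receptors together held 66.4 ± 6.97% in vehicle and 71.9 ± 4.18% after LPS, and the groups overlapped.

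**Figure D3:**
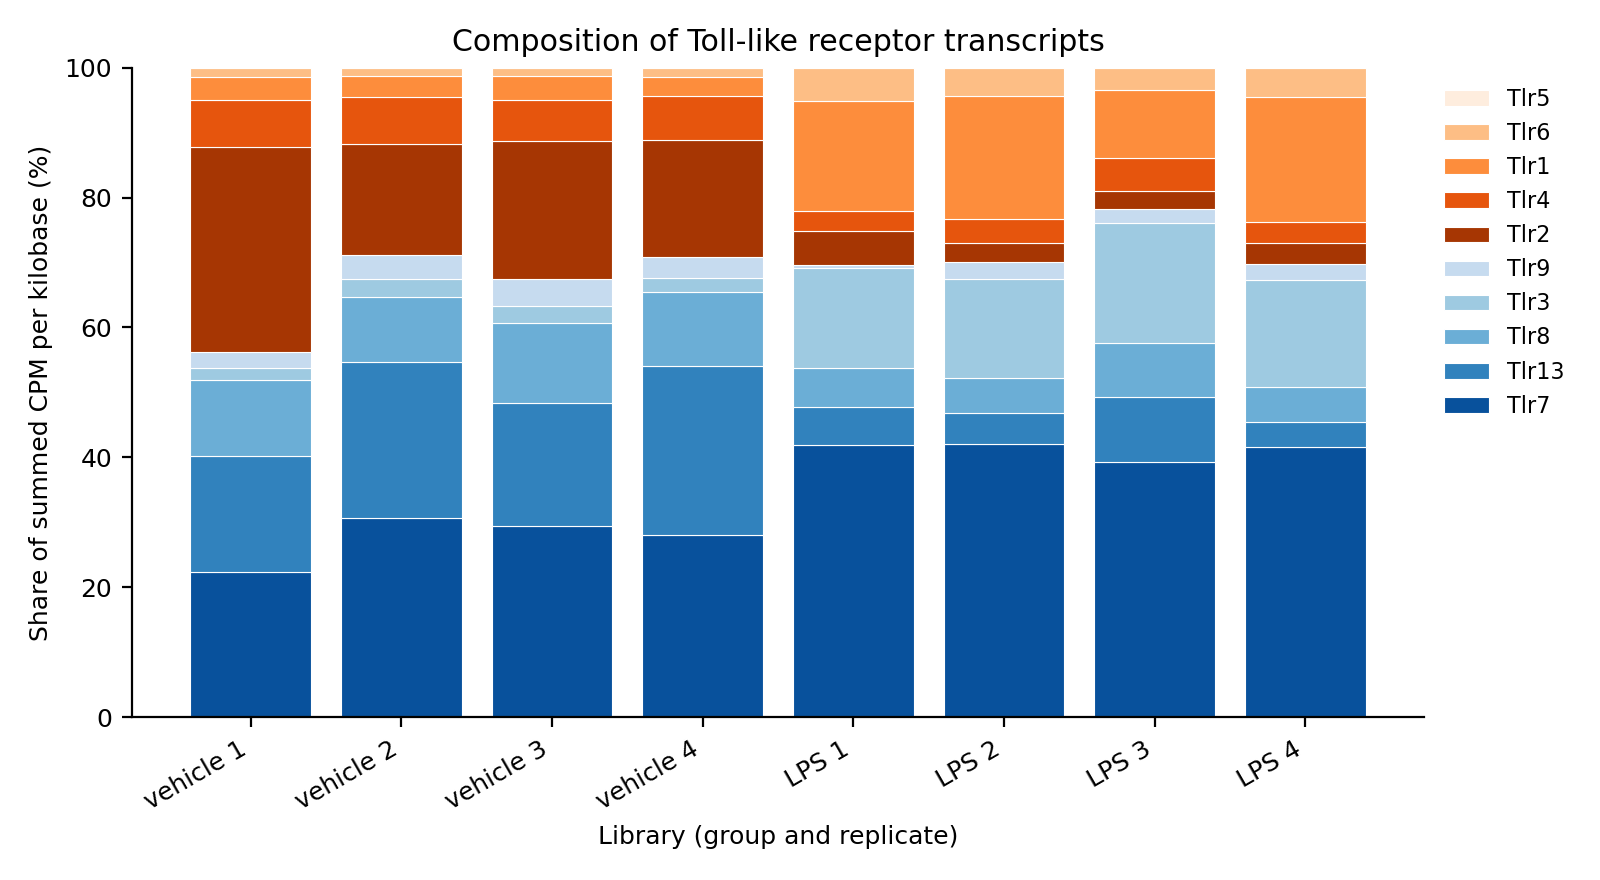
Share of each Toll-like receptor gene in the summed CPM per kb of the 10 receptors, 1 bar for each library, endosomal receptors in blue below and surface receptors in orange above. The dark orange part of Tlr2 shrinks from a mean of 22.0% in vehicle to 3.54% after LPS while those of Tlr1 and Tlr3 grow to 16.4% each.

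Ratios between receptors do not depend on the scaling of a library. The ratio of Tlr1 to Tlr2, the pair that binds triacylated lipoproteins, was -3.15, -2.37, -2.50 and -2.58 on the log2 scale in vehicle and 1.69, 2.75, 1.88 and 2.57 after LPS. Tlr2 was thus the more abundant of the pair in every vehicle library and Tlr1 in every LPS library, a difference of 4.87 (two-sided exact permutation test, p = 0.0286, 0.0374 after Benjamini-Hochberg adjustment over 17 shares and ratios). The ratio of Tlr6 to Tlr2, the pair for diacylated lipoproteins, went from -4.04 ± 0.34 to 0.34 ± 0.27, a difference of 4.38. The ratio of Tlr4 to Tlr2 went from -1.64 ± 0.39 to 0.12 ± 0.71, that of Tlr7 to Tlr8 from 1.28 ± 0.28 to 2.73 ± 0.33, and that of Tlr3 to Tlr9 from -0.53 ± 0.13 to 3.35 ± 1.10. These differences of 1.76, 1.45 and 3.88 had the same p and adjusted p as the first. For Tlr3 to Tlr9, LPS replicate 1 stood at 4.95, against 2.52 to 3.18 in the other LPS libraries, and the difference was 3.34 without it. The ratio of Tlr1 to Tlr6, 1.39 ± 0.19 and 1.88 ± 0.29, overlapped between groups (difference 0.49, exact permutation p = 0.0571, adjusted 0.0607). Within same-numbered pairs of libraries, the 5 ratios that passed moved in the same direction in 4 of 4 pairs, with a sign-flip p of 0.125, the smallest that 4 pairs allow.

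**Figure D4:**
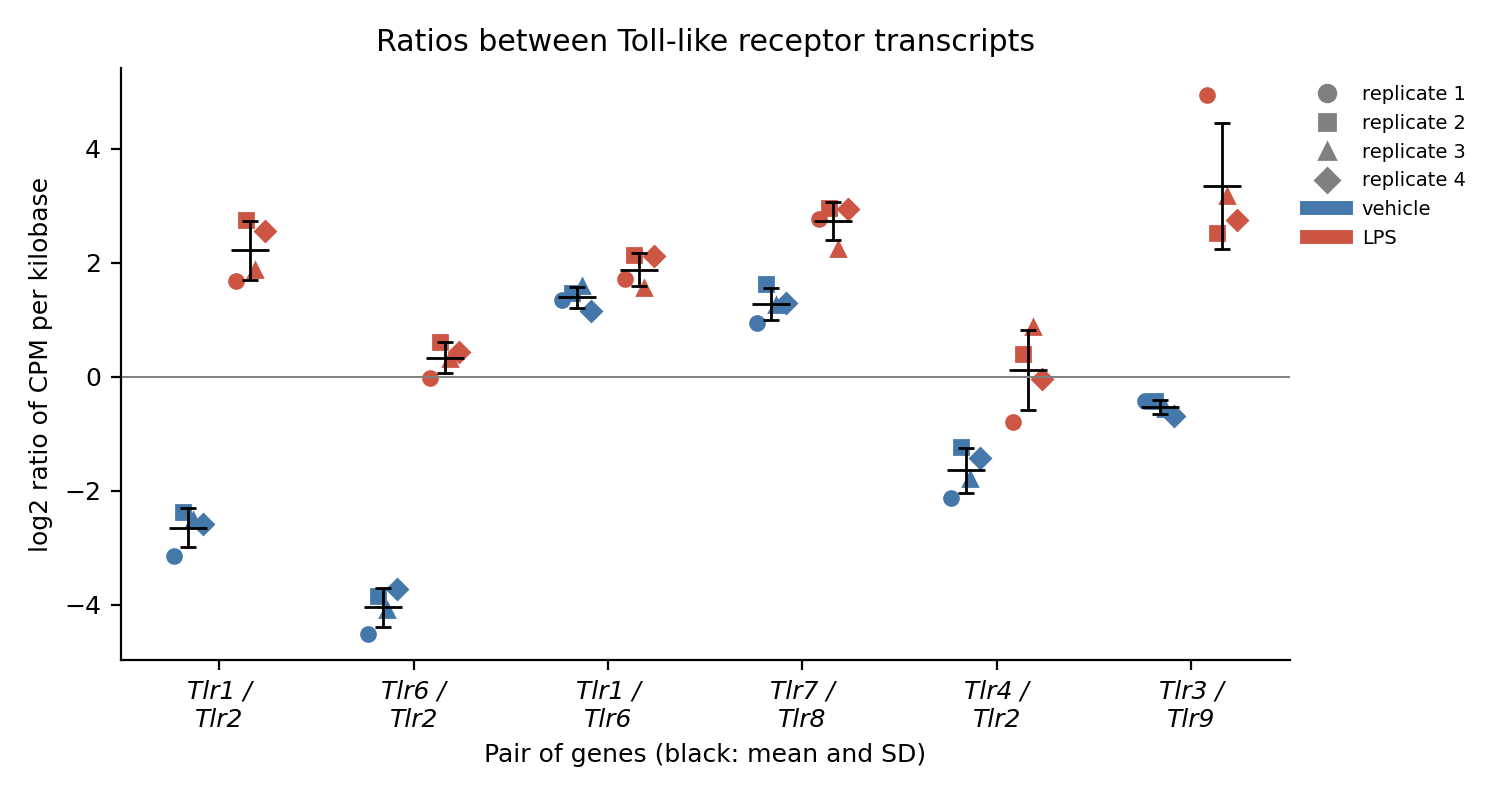
Log2 ratio of CPM per kb between 6 pairs of Toll-like receptor genes in each vehicle (blue) and LPS (red) library, with mean and SD in black and symbols for the replicate number. Ratios to Tlr2 are below 0 in all vehicle libraries, and those of Tlr1 to Tlr2 are above 0 in all LPS libraries.

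The 250 bases before the RefSeq transcription start (GRCm38.p6) were searched on both strands for short motifs in the 8 receptors that have such windows, with 10 windows in all (Tlr1 and Tlr6 have 2 each). The letters GAGGAAG, which are bound by the myeloid factor PU.1, occurred in the windows of Tlr1, which rose, and of Tlr9 and Tlr13, which fell. These 3 windows are shown for that reason, without bases that GENCODE places in an exon, with the motif in capitals and, in Tlr9, also TGACTCA, a match to the AP-1 letters TGANTCA:
Tlr1, chr5:64933564-64933808, minus strand: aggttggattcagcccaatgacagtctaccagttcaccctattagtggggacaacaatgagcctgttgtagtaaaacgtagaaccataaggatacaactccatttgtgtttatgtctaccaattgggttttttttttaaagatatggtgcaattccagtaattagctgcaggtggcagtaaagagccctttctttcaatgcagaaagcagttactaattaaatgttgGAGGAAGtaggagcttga
Tlr9, chr9:106222348-106222597, plus strand: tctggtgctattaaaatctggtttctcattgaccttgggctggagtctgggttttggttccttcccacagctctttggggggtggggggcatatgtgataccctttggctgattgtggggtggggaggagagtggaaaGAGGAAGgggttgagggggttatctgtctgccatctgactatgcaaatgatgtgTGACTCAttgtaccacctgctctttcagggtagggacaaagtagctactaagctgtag
Tlr13, chrX:106143025-106143203, plus strand: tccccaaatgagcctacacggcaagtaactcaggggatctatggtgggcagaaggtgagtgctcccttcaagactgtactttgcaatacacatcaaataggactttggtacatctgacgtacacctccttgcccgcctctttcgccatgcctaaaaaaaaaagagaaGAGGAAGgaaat
Counted from the RefSeq start, the first base of the motif was at -23 in Tlr1, -112 in Tlr9 and -83 in Tlr13, and 10.6% of all 32851 windows held it, as 6.75% held the AP-1 letters. The kappaB letters GGNNTTTCC, bound by NF-kB, occurred in the windows of Tlr3, in bases that GENCODE places in an exon, and of Tlr5, with 4.93% of all windows. The interferon response letters GAAANNGAA occurred in the windows of Tlr6, with 2 overlapping matches, and of Tlr8, with 7.13% of all windows. TATAAA occurred in windows of Tlr6 and Tlr8, with 12.4% of all windows, and none of these letters occurred in the window of Tlr2. Receptors that rose and receptors that fell thus shared letters, and a match is not a binding site.

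The receptors work with further proteins, taken here as 7 lists of 63 genes, of which 61 were tested. After LPS 30 of these were called higher and 15 lower, where 30.3% of all tested genes were higher and 33.8% lower, and 16 were neither. With library totals the counts were 24 higher and 26 lower. With TMM scaling the lists together had a median log2 fold change of 0.41 against -0.11 for all tested genes and -1.17 for the 9 receptors. In the same fit, the adaptors and inhibitors and the pattern recognition receptors of other families had medians above 1. The lists that fold, move and cut the receptors had medians near 0. Library totals moved the median of all tested genes by -0.68. All p-values below are adjusted p from edgeR.

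Of 6 accessory receptors at the cell surface, 5 were tested, 1 was higher and 2 were lower, beside 30.3% and 33.8% of all tested genes. Ly96, which encodes the MD-2 subunit that holds LPS on TLR4, rose 2.40-fold, from 10.4 ± 0.35 to 25.0 ± 6.51 CPM (log2 fold change 1.26, adjusted p = 0.000155). Cd14, the LPS co-receptor, stood at 888 ± 326 and 913 ± 388 CPM and was not called (0.04, adjusted p = 0.917). Cd180 and Ly86, a receptor related to TLR4 and its MD-1 subunit, fell by 0.98 and 1.95 on the log2 scale (adjusted p = 0.0067 and 0.000132), with overlapping groups for Cd180. The 3 parts of the LPS receptor complex thus took separate courses, Tlr4 lower, Ly96 higher and Cd14 not called.

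Of the 10 genes that fold or move the receptors, 3 were higher and 3 lower, close to the shares of all tested genes (30.3% and 33.8%). With library totals 1 was higher and 6 were lower, and with the replicate block or DESeq2 4 were higher, as Hsp90b1, a chaperone of the receptors, was then called (adjusted p = 0.0336 and 0.0296, against 0.0532). Slc15a3, an endosomal peptide transporter, rose 8.83-fold from 354 ± 45.1 to 3123 ± 241 CPM (log2 fold change 3.14, adjusted p = 3.46e-07). Lrrc59 and Ap3b1, which help receptors leave the endoplasmic reticulum and reach lysosome-related compartments, rose by 0.84 and 0.71 on the log2 scale, and neither was called with library totals (adjusted p = 0.154 and 0.828). Rab7b, a small GTPase of late endosomes, fell by 0.97, Cnpy3, a chaperone of the receptors, by 0.57 and Slc15a4, an endosomal transporter, by 0.49. The calls of Cnpy3 and Slc15a4 were each lost in at least 3 of the 8 fits that leave out a library. Unc93b1, which carries the endosomal receptors from the endoplasmic reticulum and was picked out after its values were seen, stood at 664 ± 102 and 638 ± 202 CPM and was not called (adjusted p = 0.842), while with library totals it was called lower (-0.70, adjusted p = 0.0324). Of 5 proteases that cut endosomal receptors, Ctsb was lower (-0.57, adjusted p = 0.0163; 0.0526 without vehicle replicate 2) and the other 4 were not called.

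Of 6 adaptors, 5 were higher and 1 lower, beside 30.3% and 33.8% of all tested genes. Pik3ap1, which links the receptors to PI3K, rose by 1.63 on the log2 scale, Myd88 by 1.46 and Ticam2, the bridge between TLR4 and TRIF, by 1.31. Sarm1, a TIR-domain protein known as a brake on TRIF, had a log2 fold change of -2.34 with an adjusted p of 0.0306, at 1.72 ± 0.53 CPM in vehicle and with overlapping groups. That call was lost in 6 of the 8 fits without a library, and the log2 fold change was -4.53 without LPS replicate 1.

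Of 15 kinases and ubiquitin ligases, 7 were higher and 6 lower, beside 30.3% and 33.8% of all tested genes, and with library totals 4 were higher and 9 lower. Peli1, an E3 ligase of the pathway, rose by 2.44, Ikbke, a kinase of the interferon branch, by 2.41 and the kinase Irak2 by 2.25 on the log2 scale (adjusted p = 5.11e-06, 4.12e-05 and 4.01e-07). The ligases Peli2 and Peli3 fell by 2.79 and 1.94 and the ubiquitin-conjugating enzyme Ube2n by 1.39 (adjusted p = 3.05e-06, 0.000303 and 5.88e-05). Members of the Pellino family thus moved in opposite directions.

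Of 10 inhibitors, 9 were tested, 6 were higher and 1 was lower, beside 30.3% and 33.8% of all tested genes. With library totals 5 inhibitors were higher and 3 lower. Tnfaip3, which encodes the ubiquitin-editing enzyme A20, rose 24.9-fold from 51.7 ± 5.00 to 1287 ± 121 CPM (log2 fold change 4.64, adjusted p = 3.75e-08). Socs1 and Irak3, brakes on cytokine and receptor signalling, rose by 3.79 and 3.78 on the log2 scale. Il1rl1, the IL-33 receptor, fell from 3.20 ± 1.27 to 0.0715 ± 0.114 CPM, a log2 fold change of -5.47 that was -7.18 without LPS replicate 1. Of 11 pattern recognition receptors of other families, 8 were higher and 1 lower, beside the same shares of all tested genes. With library totals 8 of them were higher and 3 lower. Nod2, Nlrp3 and Nod1, cytosolic sensors, rose by 3.35, 2.63 and 2.58, and Clec7a, the surface receptor of fungal glucans, fell by 2.71 on the log2 scale (adjusted p = 1.29e-06, 4.01e-07, 2.69e-05 and 0.000392).

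**Figure D5:**
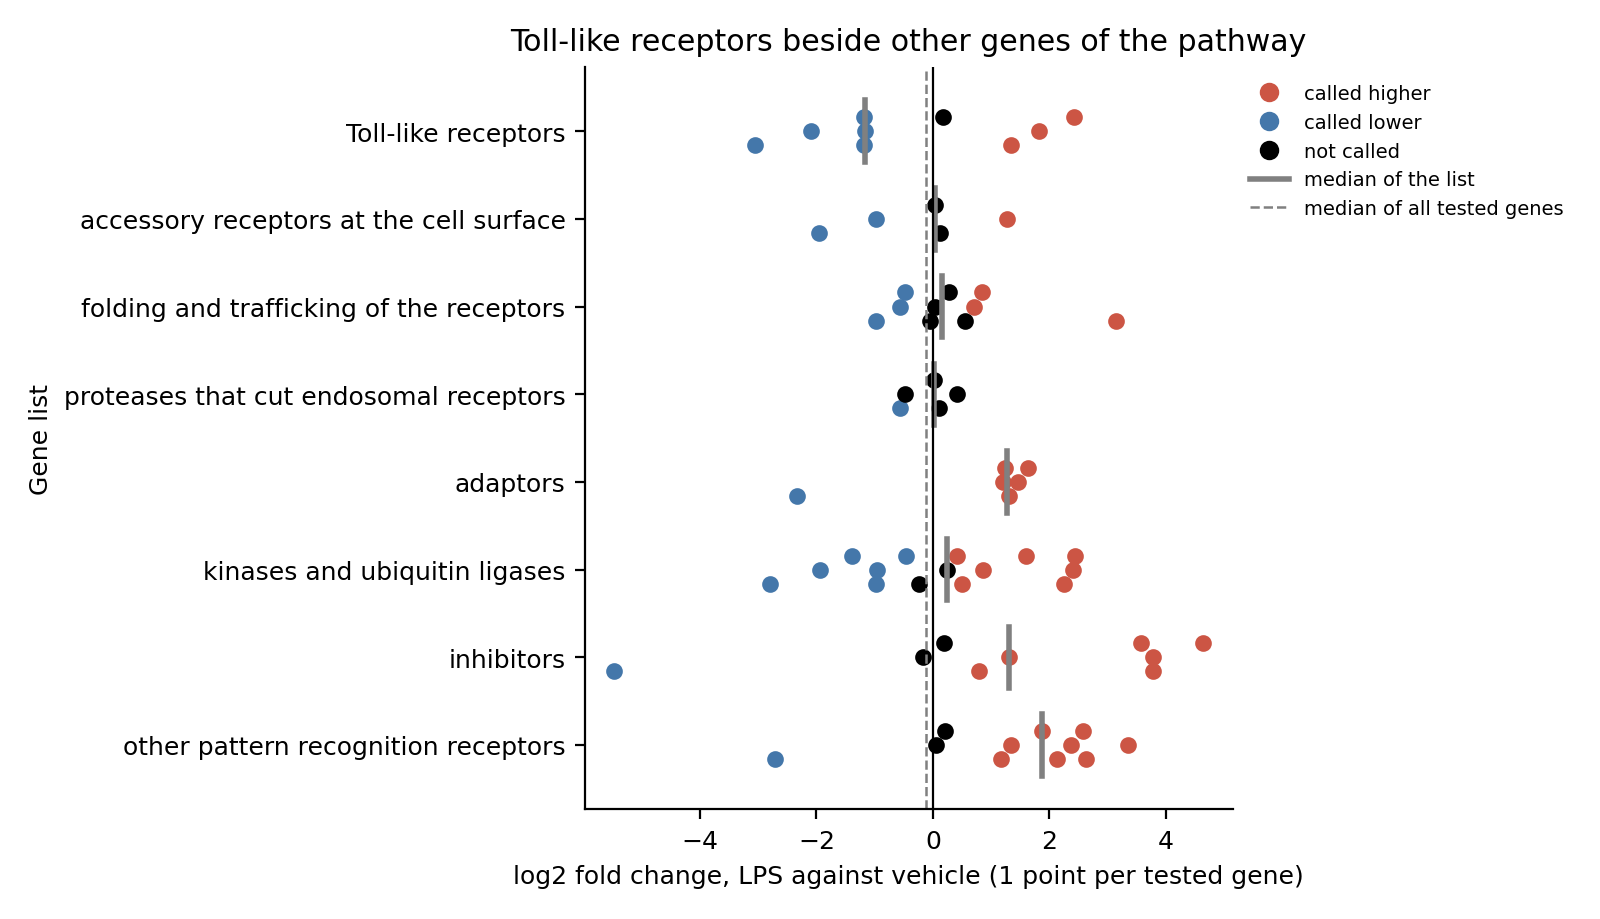
Log2 fold change, LPS against vehicle, of the tested genes of the Toll-like receptor group and of 7 lists of genes of the pathway, 1 point per gene, coloured by call, with a grey bar at the median of each list and a dashed line at the median of all tested genes. The receptors have a median of -1.17 and the adaptors of 1.27, with the receptors spread from -3.05 to 2.43.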

How the data were processed

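RNA sequencing data of 4 vehicle and 4 LPS libraries were used. The authors aligned single-end 50-base reads to GRCm38 with GSNAP through HTSeqGenie and deposited raw counts of uniquely aligned reads per Ensembl gene, without normalization. Library kit and sequencer differ between the labels and the paper's methods. The annotation release used for counting is not given in the sources used here. Symbols and exons came from GENCODE vM21, promoter windows from RefSeq.

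Counts were tested with edgeR 4.0.16 in R 4.3.3 (two-sided quasi-likelihood test after TMM scaling, keeping genes by filterByExpr with min.count 10 and min.total.count 15), adjusted by the Benjamini-Hochberg method over 13847 genes at a threshold of 0.05. Shares and ratios of CPM per kb of exon were tested with an exact permutation test over 70 divisions. Scripts were tested on simulated data. Python 3.11.15, numpy 2.4.6, pandas 2.3.3, scipy 1.17.1 and matplotlib 3.10.9 were used. Alternatives were DESeq2 1.42.0, upper quartile scaling, no filter on counts, a stricter filter of 10 counts in each library, a replicate block, an adjusted p under 0.01, a log2 change of at least 1, leaving out each library and, chosen after seeing the data, library totals. Shares were also computed with transcript length and without division by length.

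Named genes were the 10 receptors, Tlr11, Tlr12, Cd14, Ly96 and, of each list, up to 3 called genes with the largest rise and fall. The members and lists were chosen with earlier results of these data known. Single values of a few markers in the summed marker levels are not reported here. The sources do not say whether same-numbered libraries share a culture or were sequenced in 1 batch, so p-values measure the spread between these samples. After subtraction of each group's mean, libraries with the same number correlated with r of 0.368, 0.183, 0.169 and 0.101 over 8155 genes, all above the limit of 0.1 taken for pairs. For replicates 2 and 4 the exchanged pairs gave 0.128 and 0.136. The main test was unpaired, and the replicate number entered only as a block among the alternatives and in the sign-flip test.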

Additional observations from a re-analysis of the deposited data

Results flagged for a closer look

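In 3 cases the highest library of a group stood far from the others by Dixon's criterion for 4 samples, among 32 groups examined, of which chance would mark about 1 in 20. All 3 were LPS replicate 3. Its level of Tlr3 was 499 CPM, against 261 to 298 CPM in the other LPS libraries, its level of Tlr8 was 153 CPM, against 67.3 to 72.2 CPM, and its level of Tlr13 was 225 CPM, against 57.8 to 81.4 CPM. This library had the largest total, 30604447 counts, and the lowest normalization factor, 0.701. Its summed microglial markers, at 1993 CPM, were the lowest of all libraries. The part of these in the 3 levels was not tested, and without the library all 3 genes kept their calls.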

How the results depend on the processing

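Of the 9 tested receptors, 7 kept direction and call in all 16 alternatives. Tlr9 lost its call in the 5 fits without a library that are named with it as losing the call, and at an adjusted p under 0.01. Scaled to library totals, Tlr7 reversed to -0.51, and so did Cnpy4 (-0.41), Tmed7 (-0.64), Ctss (-0.66), Traf6 (-0.20), Traf3 (-0.43), Tab2 (-0.28), Cyld (-0.51), Cgas (-0.62) and Tmem173 (-0.47). That scaling moved the median of all tested genes by -0.68, while upper quartile scaling shifted it by -0.16 and no filter by -0.19. It gave 26 pathway genes lower, 1988 of all genes higher and 8457 lower. At a log2 change of at least 1, 7 pathway genes were lower, and 2224 of all genes were higher and 2998 lower. Leaving out 1 library, 4 to 6 receptors were called lower, Tlr5 among them where it passed the filter, and DESeq2 gave -2.55 for Tlr5 (adjusted p = 0.00809).

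The replicate block changed no call of a receptor. For the paired sign-flip test, the ratios of Tlr1 to Tlr2 (4.87), Tlr6 to Tlr2 (4.38), Tlr7 to Tlr8 (1.45), Tlr4 to Tlr2 (1.76) and Tlr3 to Tlr9 (3.88) kept their size, at an adjusted p of 0.152, which 4 pairs cannot bring under the threshold. Leaving out 1 library, the difference for Tlr4 to Tlr2 ranged from 1.502 to 2.06, past the threshold in fits without an LPS library and at an adjusted p of 0.0694 without a vehicle library. That for Tlr1 to Tlr6 ranged from 0.40 to 0.59, and was past the threshold without LPS replicate 3 (adjusted p = 0.0347). Without division by length, the difference in the share of Tlr3 was 17.6 percentage points and that of Tlr4 was -4.64. Depth limits Tlr5, Tlr11 and Tlr12, at fewer than 40 counts in every library.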
